A study of Mus musculus with 16 samples.

Results

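The subject is one disomic mouse gene, chr3.308256, chosen because its level was low in the cerebellum of TcMAC21 pups in these same data. It is 1 of the 13807 genes in the deposited table and 1 of the 652 on chromosome 3. Its identifier gives a chromosome and a number from the transcript assembler, and the table pairs it with neither a gene symbol nor a position, so the gene is called by its identifier throughout, its function is not described and no sequence is shown for it. Because the fall in TcMAC21 is what chose it, that difference is given as a description without a test. The Ts65Dn animals and the neighbouring genes serve as reference and are tested, though the gene was picked with earlier results of both crosses known.

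RNA-seq was performed on whole cerebella of 16 pups at postnatal day 6, with 4 animals in each of 4 groups. TcMAC21 pups carry human chromosome 21, nearly its whole long arm, as a freely segregating mouse artificial chromosome that also holds a constitutively expressed GFP gene, beside a complete set of mouse chromosomes, on a C57BL/6J (B6) and DBA/2J (D2) background. Ts65Dn pups carry an extra small chromosome with segments of mouse chromosomes 16 and 17, on a C57BL/6J and C3H/HeJ background. Each model was compared with its own euploid littermates, which carry neither extra chromosome and share the mixed background of their cross. Because the libraries were made from whole tissue, fewer cells of a type and less RNA per cell cannot be told apart. The labelled tissue was not checked against marker genes, since the table carries no symbols.

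In both models the genes on the extra chromosome are present in an additional copy, and every other gene is called disomic because it has the usual pair. Chromosome 3 is disomic in TcMAC21 and in Ts65Dn. Soon after birth the mouse cerebellum grows chiefly through division of granule cell precursors in its outer layer, driven by Sonic hedgehog from Purkinje cells.

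The value deposited for each animal is a normalized count, the read count of the gene divided by one size factor per library, so a level can be compared between animals but not between genes of different length. The reads behind the values were recovered from the table. Libraries held from 6317856 to 25719969 reads on genes, and chr3.308256 itself was covered by 753 to 6830 reads per animal. The counting error of its level was therefore between 1.21% and 3.64%, and it covers counting only. No pair of libraries was identical. Ts65Dn euploid replicate 1 stood apart in that limma put the adjusted p under 0.05 for 27.8% of mouse genes in its cross without it and for 0% with it (2.51% by DESeq2 with it), so the Ts65Dn difference of chr3.308256 and the calls among its neighbours are also given without it.

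In TcMAC21 pups chr3.308256 was lower than in their euploid littermates. Its normalized count was 1398 in TcMAC21 replicate 1, 1868 in replicate 2, 1620 in replicate 3 and 1603 in replicate 4. In their euploid littermates it was 4839 in replicate 1, 6903 in replicate 2, 3663 in replicate 3 and 3880 in replicate 4. Every TcMAC21 pup lay below every euploid littermate, and the lowest littermate was 1.96 times the highest TcMAC21 pup. This was so for 2.25% of the 13415 mouse genes tested in the cross, a share from which nothing is read here, because the contrast chose the gene.

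The 4 TcMAC21 pups averaged 1622 ± 192 normalized counts (SD, n = 4) and the 4 littermates 4821 ± 1479 (SD, n = 4). On the scale of log2(normalized count + 1) the difference was -1.53 with a standard error of 0.19, a geometric mean 2.89 times lower in TcMAC21. With genes called where limma put the Benjamini-Hochberg adjusted p under 0.05, 0.0149% of the mouse genes tested in this cross were lower. The standard error was larger than that of 77.4% of the 3725 mouse genes whose normalized count averaged 1000 or more, for which the median standard error was 0.15.

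**Figure D1:**
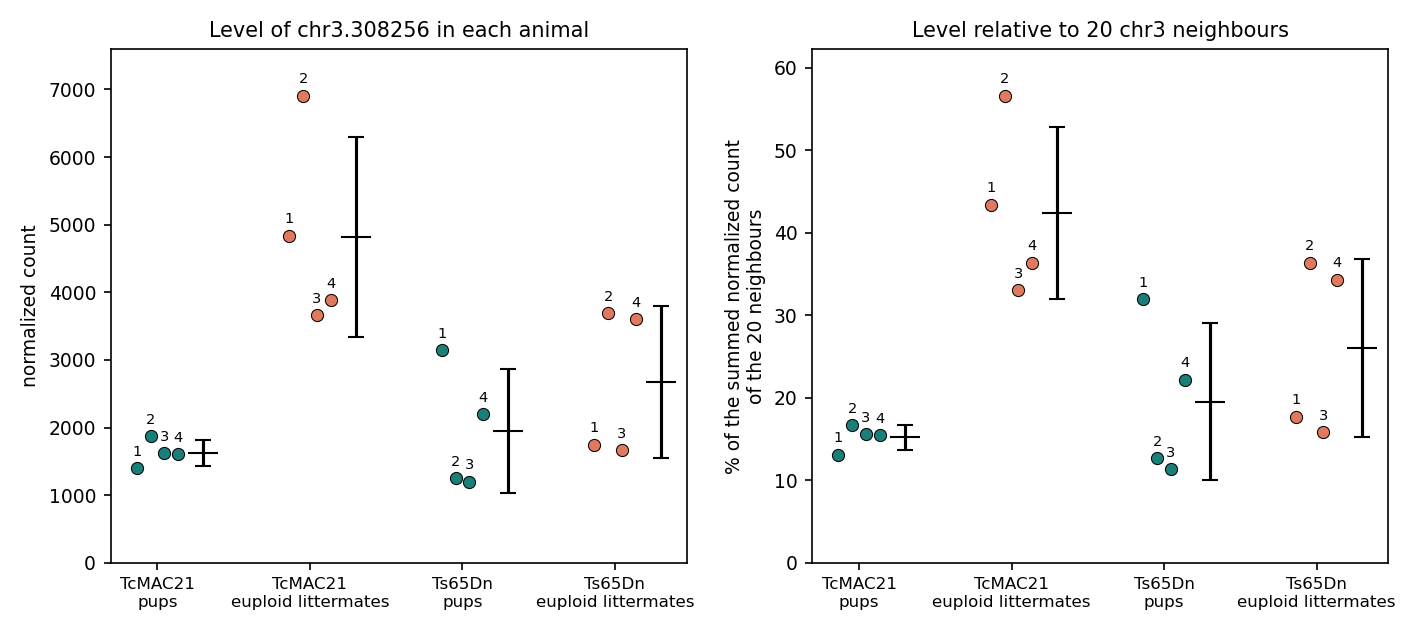
Each point is one animal, numbered by replicate, with the group mean and SD (n = 4) beside it, on axes that start at 0. The left panel shows the normalized count of chr3.308256 and the right panel its percentage of the summed normalized count of its 20 neighbours on chromosome 3. The 4 TcMAC21 pups lie between 1398 and 1868, their 4 euploid littermates between 3663 and 6903, and the Ts65Dn pups and their littermates overlap between 1664 and 3141.

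Same-numbered animals of the TcMAC21 cross deviated together over mouse genes, so the numbers were taken as pairs there. This pairing is an assumption read from the same data, since the labels name no litters. What follows by pair is a description. The TcMAC21 pup had 28.9% of the normalized count of chr3.308256 in its same-numbered littermate in pair 1, 27.1% in pair 2, 44.2% in pair 3 and 41.3% in pair 4. The level was lower in all 4 pairs. The littermate with the highest level, replicate 2, was paired with the TcMAC21 pup with the highest level. With the pair as a block the standard error of the log2 difference was 0.13, while the difference itself cannot change in a balanced design. In that fit 0.991% of the mouse genes were called in either direction, against 0.0149% without the block.

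The same counts can be described inside each library, without a size factor. Set against the summed normalized count of its 20 neighbours on chromosome 3, chr3.308256 stood at 13.1%, 16.7%, 15.6% and 15.5% in TcMAC21 replicates 1 to 4. In littermates 1 to 4 it stood at 43.4%, 56.6%, 33.0% and 36.4%. The log2 difference of this share was -1.45. It uses the counts that chose the gene and is not further evidence. The neighbours' own sum averaged 10667 ± 385 (SD, n = 4) for TcMAC21 and 11275 ± 652 (SD, n = 4) for the littermates. That sum was also lower in the TcMAC21 pup of each same-numbered pair, which was not tested.

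Among the 13415 mouse genes tested in the TcMAC21 cross, 2 had a lower log2 difference than chr3.308256, and both were picked out after their values were seen. The gene chr3.318406, also on chromosome 3, had a log2 difference of -2.10 with a standard error of 1.06 (adjusted p = 0.685 by limma). Its normalized count was between 0 and 37.56 in TcMAC21 pups and between 12.71 and 39.57 in littermates, so its groups overlapped. The gene chrX.516572 had a log2 difference of -1.70 with a standard error of 1.62 (adjusted p = 0.783 by limma). Its normalized count ran from 17.14 to 104.7 in TcMAC21 pups and from 23.98 to 8866 in littermates, so its groups overlapped too. The littermates' mean of 2237 ± 4420 (SD, n = 4) came almost wholly from the single animal with 8866. For both genes the standard error was at least several times that of chr3.308256.

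**Figure D2:**
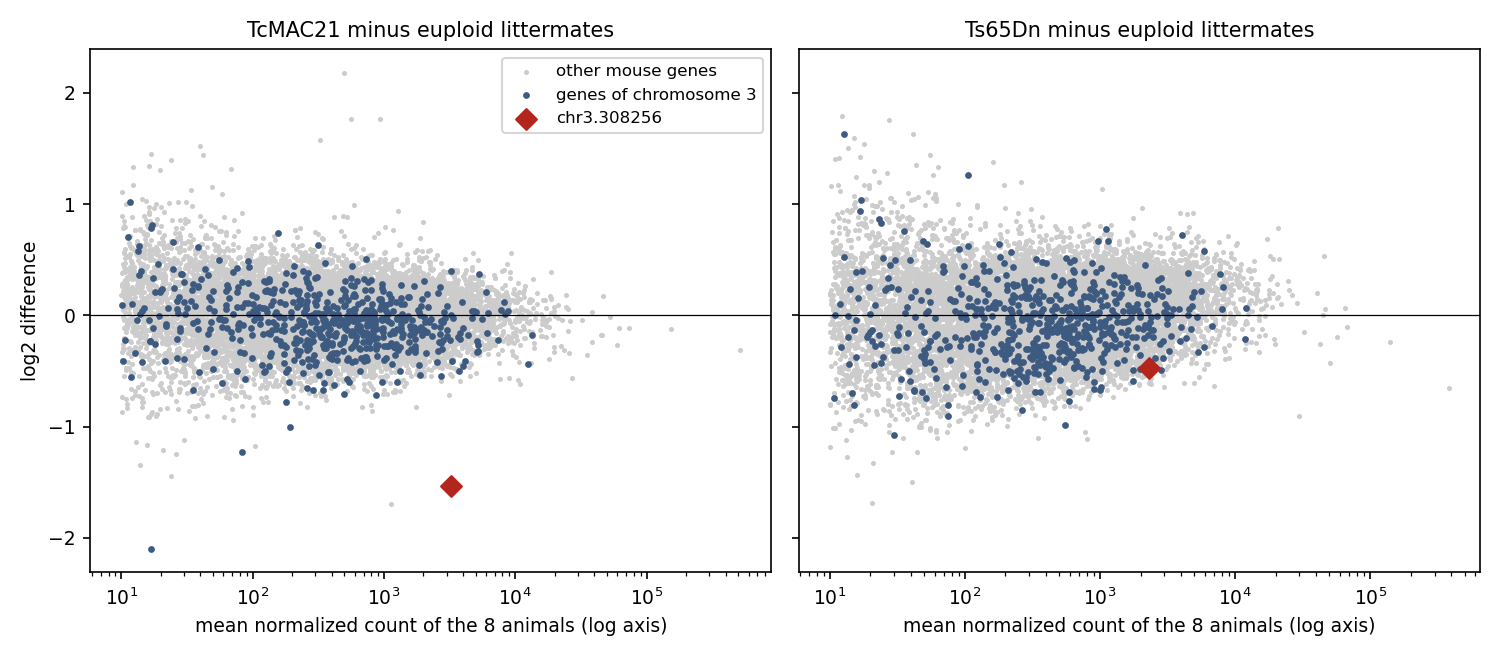
Each point is a mouse gene tested in the cross, placed by the mean normalized count of the 8 animals (log axis) and its log2 difference between trisomic pups and euploid littermates, with the genes of chromosome 3 in blue and chr3.308256 as a red diamond. In TcMAC21 it lies at -1.53 with 2 genes lower, and in Ts65Dn at -0.48, inside the cloud.

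In the Ts65Dn cross the same gene did not separate the genotypes. Its normalized count was 3141 in Ts65Dn replicate 1, 1247 in replicate 2, 1201 in replicate 3 and 2197 in replicate 4. In the euploid littermates of that cross it was 1744 in replicate 1, 3692 in replicate 2, 1664 in replicate 3 and 3604 in replicate 4. The groups overlapped widely, with the highest Ts65Dn pup above 2 of the 4 littermates. A Ts65Dn pup was lower than a euploid littermate in 12 of the 16 possible comparisons, against 16 of 16 in the TcMAC21 cross. In the Ts65Dn cross 4.23% of the mouse genes were lower in every trisomic pup than in every littermate, and chr3.308256 was not among them.

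Ts65Dn pups averaged 1947 ± 919 (SD, n = 4) and their littermates 2676 ± 1123 (SD, n = 4). The log2 difference was -0.48 with a standard error of 0.36 and a 95% confidence interval from -1.27 to 0.32, and it did not pass the test (adjusted p = 0.471 by limma over 13430 genes). The pups of each group came from fewer litters than animals, and both tests of this difference treat them as independent. An exact permutation test on the log2 levels, two-sided, gave p = 0.343, where the smallest p that 4 animals against 4 allow is 0.0286. As a ratio of geometric means the interval runs from 0.415 to 1.25, which holds both no change and a level in Ts65Dn at 0.415 of that in littermates. Leaving out each animal in turn moved the log2 difference between -0.74 and -0.28 (adjusted p from 0.161 to 0.788 by limma). It was smallest without Ts65Dn replicate 3 (-0.28), euploid replicate 2 (-0.29), euploid replicate 4 (-0.30) or Ts65Dn replicate 2 (-0.30), and furthest from 0 without Ts65Dn replicate 1 (-0.74). Without Ts65Dn euploid replicate 1 it was -0.65 (adjusted p = 0.161 by limma). In this cross limma with all 8 animals called 0% of the 13426 mouse genes in either direction. An unadjusted p under 0.05 was found for 17%. The genes tested include those on the extra chromosome, so failing this limma test says little about chr3.308256. DESeq2, which called 2.51% of mouse genes in this cross, gave chr3.308256 an adjusted p of 0.452. Whether the differences in the 2 crosses are unequal was not tested, since the TcMAC21 difference chose the gene. Set side by side they are 1.06 apart on the log2 scale.

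The spread of chr3.308256 among animals of one genotype is given as a description, since in the TcMAC21 cross it comes from the values that chose the gene, and a choice by clean separation favours a small spread. The coefficient of variation of the normalized count was 11.8% in TcMAC21 pups, 30.7% in their euploid littermates, 47.2% in Ts65Dn pups and 42.0% in the littermates of those. Among the same 3725 well covered mouse genes the median coefficient of variation was between 12.2% and 14.5% in the 4 groups. That of chr3.308256 lay above 39.0% of these genes in TcMAC21 pups and above 92.6% in their littermates. It lay above 99.7% of them in Ts65Dn pups and above 97.4% in Ts65Dn littermates.

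Across the 4 groups the mean levels fell in the order TcMAC21 euploid littermates, Ts65Dn euploid littermates, Ts65Dn pups and TcMAC21 pups. The first 2 groups in this order touch, since the lowest TcMAC21 littermate had 3663 and the highest Ts65Dn littermate 3692. Euploid animals of the TcMAC21 cross had an arithmetic mean 1.80 times that of the euploid animals of the Ts65Dn cross. The difference of their mean log2 levels, which weights high animals less, was 0.90, and both are given without a test because the former animals were used to choose the gene. The Ts65Dn littermates and Ts65Dn pups overlapped, as did the Ts65Dn and TcMAC21 pups, and neither pair of neighbours in the order differed beyond its spread. The Ts65Dn littermates with 1664 and 1744 lay within the range of the TcMAC21 pups, from 1398 to 1868. The TcMAC21 pups were not the lowest animals, as Ts65Dn replicates 2 and 3 lay below all of them. The full range over 16 animals was 5.75-fold.

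The sex of the pups is not in the labels, but reads of the 6 genes listed on chromosome Y separated the animals into those with a summed normalized count above 1000 and those below 10. All 4 TcMAC21 pups and 3 of their 4 littermates were above 1000. The littermate below 10, replicate 4, had 3880 of chr3.308256, within the range of the other littermates, from 3663 to 6903. In Ts65Dn pups the animals with a Y-linked sum above 1000 had chr3.308256 levels of 1201 and 1247, and those below 10 had 2197 and 3141. In Ts65Dn littermates the animals above 1000 had levels of 1744 and 3604, and those below 10 had 1664 and 3692. The part of sex in these levels was not tested. With the Y-linked sum as a covariate the log2 difference was -1.62 in TcMAC21 and -0.46 in Ts65Dn (adjusted p = 0.491 by limma).

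Depth moved with the level in one group. The Ts65Dn littermates with the low levels, replicates 1 and 3, had 9140152 and 6317856 reads on genes, and those with the high levels, replicates 2 and 4, had 25719969 and 16466981. In TcMAC21 the shallowest pup, with 7704334 reads, had a level of 1603, within the 1398 to 1868 of its group, and the deepest, with 20225316, had the lowest level. The part of depth in the Ts65Dn levels was not tested. The summed normalized count of the human chromosome 21 genes was 48003, 49443, 50423 and 61687 in TcMAC21 replicates 1 to 4. The pup with the highest human sum, replicate 4, did not have an extreme level of chr3.308256.

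The genes next to chr3.308256 were examined to see whether a wider stretch of chromosome 3 was lowered with it. They are the 10 genes before and the 10 after it when the 641 chromosome 3 genes that averaged 10 or more are sorted by identifier number. The use of this number as a chromosomal order is an assumption, and the distance between the genes is not known. Neighbours had mean normalized counts from 17.47 to 1390.

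None of the 20 neighbours was called in either cross. In TcMAC21 their log2 differences ran from -0.61 to 0.40 with a median of -0.09, against a median of 0.00 over all mouse genes tested, and 15 of the 20 were below 0, against 49.9% of all mouse genes. By limma 0 of the 20 passed an adjusted p of 0.05, where 0.0149% of all mouse genes did in either direction, and 1 had an unadjusted p under 0.05, where 6.57% of all mouse genes did. That gene, chr3.308075, had a log2 difference of -0.61 (adjusted p = 0.653 by limma). No neighbour had groups that did not overlap, while 4.27% of all mouse genes did. In Ts65Dn the neighbours ran from -1.07 to 0.46 with a median of -0.10, against 0.01 over all mouse genes, and 12 of the 20 were below 0, against 48.4% of all mouse genes. Whether the neighbours lay lower than other genes as a group was not tested. By limma 0 of the 20 were called, 3 had an unadjusted p under 0.05 against 17% of all mouse genes, and none had groups that did not overlap against 8.75% of all. By edgeR on the recovered reads 0 of the 20 were called in either cross, against 0.0149% of all mouse genes in TcMAC21 and 0% in Ts65Dn. By DESeq2 on the same reads 0 of 20 were called in TcMAC21, against 0.142% of all, and 0 of the 18 with an adjusted p in Ts65Dn, against 2.51% of all. At such shares a count of 0 among 20 genes says little about the neighbours.

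**Figure D3:**
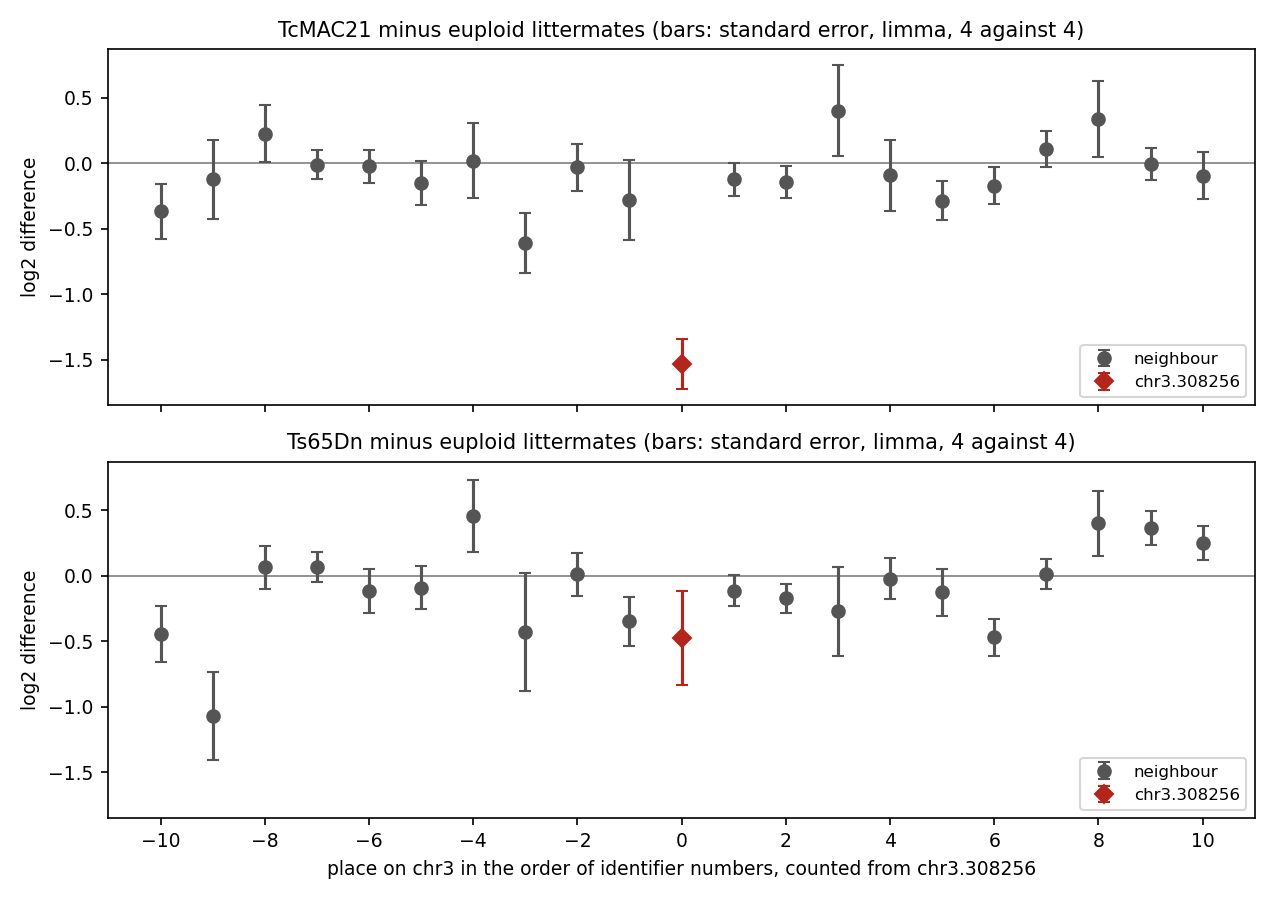
Log2 difference between trisomic pups and euploid littermates (4 against 4) for chr3.308256, a red diamond at place 0, and its 20 neighbours on chromosome 3 sorted by identifier number, with standard errors by limma. In TcMAC21 the neighbours lie between -0.61 and 0.40 and chr3.308256 at -1.53, while in Ts65Dn chr3.308256 at -0.48 lies within the neighbours' range from -1.07 to 0.46.

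The nearest gene before it, chr3.308237, had a normalized count of 209.2, 225.9, 156.8 and 78.98 in TcMAC21 replicates 1 to 4 and of 213.6, 225.2, 187.1 and 143.1 in littermates 1 to 4. Its groups overlapped, and its log2 difference was -0.28 with a standard error of 0.31 (adjusted p = 0.802 by limma). The nearest gene after it, chr3.308283, had 645.2, 693.4, 589.7 and 525.2 in TcMAC21 replicates 1 to 4 and 670.6, 705.5, 614.8 and 671.4 in littermates 1 to 4. These groups overlapped as well, with a log2 difference of -0.12 and a standard error of 0.13 (adjusted p = 0.794 by limma). By same-numbered pairs, chr3.308283 was lower in the TcMAC21 pup every time, and chr3.308237 was so except in pair 2. How many of all mouse genes are lower in every pair was not counted. In Ts65Dn the log2 differences of these genes were -0.35 (adjusted p = 0.343 by limma) and -0.12 (adjusted p = 0.592 by limma). Neither immediate neighbour passed the test in either cross.

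Over the 640 other chromosome 3 genes tested in the TcMAC21 cross the median log2 difference was -0.06, with 3 below -1 (0.469%) and 1 above 1 (0.156%). Over all mouse genes tested in that cross, chr3.308256 included, 0.0969% were below -1 and 0.186% above 1. By limma 0 of them were called, where 0.0149% of all mouse genes were, a share at which 0 of 640 says little about chromosome 3. In the Ts65Dn cross the median over 635 genes was -0.09, with 1 below -1 (0.157%) and 3 above 1 (0.472%), against 0.201% and 0.358% of all mouse genes. Whether chromosome 3 differs from the other chromosomes in these shares was not tested.

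Without Ts65Dn euploid replicate 1, 5 of the 20 neighbours were called by limma in Ts65Dn, or 25% of them, near the 27.8% of all mouse genes that passed without that library. Of these, 4 were lower and 1 was higher in Ts65Dn. The lower genes were chr3.307771 (log2 difference -1.02, adjusted p = 0.0477 by limma), chr3.308075 (-0.90, adjusted p = 0.033), chr3.308397 (-0.32, adjusted p = 0.0433) and chr3.308458 (-0.45, adjusted p = 0.0375). The higher gene was chr3.308521 (log2 difference 0.45, adjusted p = 0.0181 by limma). No neighbour was called in TcMAC21 when any one animal was left out.

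Within groups, the neighbours' levels were set against that of chr3.308256. After subtracting the group means from the log2 levels, Pearson's r of a neighbour with chr3.308256 over 16 animals ran from -0.54 to 0.57, with a median of 0.10. The highest value belonged to chr3.307694, the tenth gene before it. These correlations share libraries and depth and are given as a description.

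**Figure D4:**
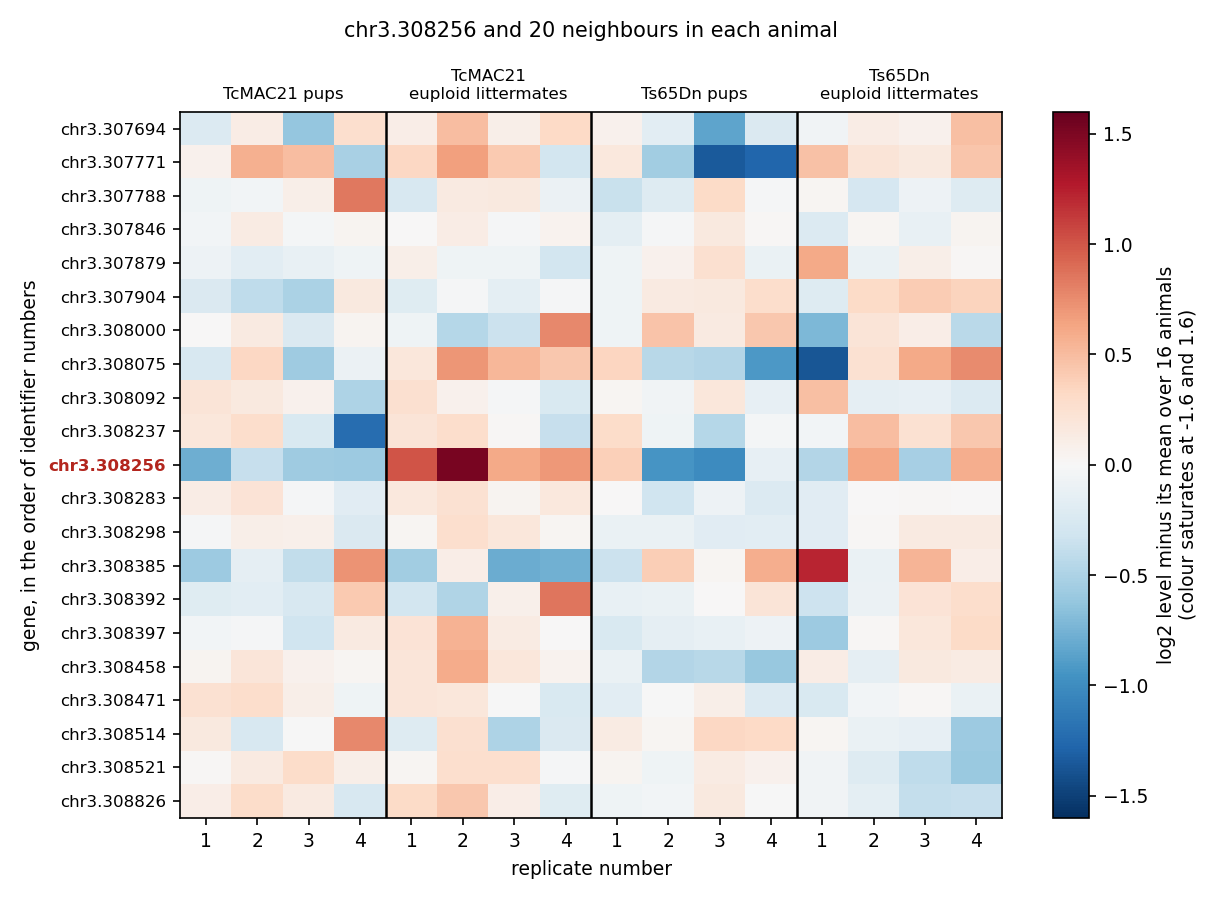
Colour shows the log2 level of chr3.308256 and of each of its 20 neighbours in each of the 16 animals, minus the mean of that gene over the 16 animals, with animals grouped by genotype and genes sorted by identifier number. The row of chr3.308256 is blue in the 4 TcMAC21 pups and red in their 4 euploid littermates, and in the Ts65Dn cross it holds both colours in each group.

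The genes most like chr3.308256 in how the level varied within groups lay elsewhere. By Pearson's r of log2 levels after subtracting the group means, over 16 animals and 13526 genes, the closest was chrX.508348 with r = 0.825, followed by chr5.379132 with r = 0.825 and chr5.368278 with r = 0.817. The first varied far less than chr3.308256, with a normalized count from 557.2 to 621.2 in Ts65Dn pups and from 624.6 to 726.7 in their littermates. The other two had few reads, with group means of the normalized count from 6.43 to 13.54 for chr5.379132 and from 17.1 to 22.32 for chr5.368278. Among the 20 closest genes 0 were on chromosome 3, which holds 4.73% of the genes compared. Another 1 was listed on human chromosome 21, which holds 109 of the 13807 genes in the table. Only the TcMAC21 pups carry that chromosome, so its values in the other groups do not measure a human gene. The most similar neighbour, chr3.307694, ranked 648 of 13526. With so many genes and 16 animals, correlations of this size are a description and no finding.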

How the data were processed

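RNA of 16 whole cerebella was measured. The authors made poly(A) libraries, aligned the reads with STAR 2.4.2a against mm39 plus human chromosome 21, built gene models with PsiCLASS over all samples together, and deposited one signal value for each gene in each library, a normalized count made with DESeq2 size factors and rounded to 2 decimals. The listed genes are described as detectable transcripts, with the cutoff not given in the sources used here. In every library 100% of values matched a whole number of reads within 0.0051 plus 1e-07 of the value, so the reads were recovered. A value of 3 reads corresponds to a normalized count of at most 6.63.

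Groups and replicate numbers came from the labels. Each cross was fitted alone with limma 3.58.1 (eBayes with trend) on log2(normalized count + 1), keeping genes that averaged 10 or more over its 8 animals and adjusting p by Benjamini-Hochberg across all of them. A fold change on this scale understates changes of low genes. Alternatives used edgeR 4.0.16 (quasi-likelihood) and DESeq2 1.42.0 on the recovered reads in R 4.3.3. Python 3.11.15, SciPy 1.17.1 and matplotlib 3.10.9 served the exact tests and plots. The fits were also run on simulated counts of independent animals, with no litters and no deviating library. That run does not show how well they work on these animals. Named genes were chr3.308256, the nearest gene on each side, any neighbour called in either cross and the 3 most similar genes, and others were picked after their values were seen. The gene, lists and tests were chosen with earlier results of these data known.

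The study took trisomic pups and littermates in pairs from a few litters per cross, fewer than the animals in a group, so some animals of a group share a litter. Which ones is not in the labels. To check whether replicate numbers mark these pairs, each animal's departure from its group mean was correlated with that of its namesake over 13423 mouse genes. The 4 correlations were 0.494, 0.497, 0.194 and 0.500 for TcMAC21, whose numbers were taken as pairs. Animals with different numbers were not correlated for comparison, so the pairing remains an assumption. All 4 were below 0 for Ts65Dn, whose numbers were not.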

Additional observations from a re-analysis of the deposited data

Results flagged for a closer look

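In the gene next to it, chr3.308283, Ts65Dn euploid replicate 1 stood apart from the other littermates, with a normalized count of 525 against 596.8 to 601.1. The gap took 0.943 of the range of the group, above Dixon's 95% critical value for 4 samples. It was the 1 such case in 24 groups (6 genes in 4 groups each), and chance gives about 1 in 20. No group of chr3.308256 itself held such an animal.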

How the results depend on the processing

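The log2 difference of chr3.308256 in TcMAC21 was -1.53, and between -1.62 and -1.53 in the settings able to move it (another pseudocount, quantile normalization, the Y-linked covariate, edgeR and DESeq2). No filter, a minimum mean of 50, the replicate block and all 16 animals in one fit leave a difference of group means at -1.53 by construction. Leaving out each animal in turn gave -1.65 to -1.34. Its share of the neighbours' sum gave -1.56 to -1.30 with one animal left out, and the euploid difference between crosses 0.71 to 1.09. In Ts65Dn the difference of -0.48 stayed below 0 and failed the test throughout, with adjusted p from 0.428 to 0.574 over these 9 settings. The main limma fit called 0% of mouse genes in this cross, so failing it says little. Leaving out each animal in turn gave -0.74 to -0.28 (adjusted p from 0.161 to 0.788). In that cross, where the numbers were not taken as pairs, the replicate block gave -0.48, as it must, with adjusted p = 0.574 by limma. Mouse genes called lower in TcMAC21 numbered 2, with 1 at a minimum mean of 50, 1 with the Y-linked covariate, 12 by DESeq2 and 104 with the replicate block, and 1 to 3 with one animal left out. In Ts65Dn they numbered 0 (17% of genes had an unadjusted p under 0.05), with 1 in the fit of all 16 animals, 160 by DESeq2, and 0 to 1992 with one animal left out, the highest without Ts65Dn euploid replicate 1. Called neighbours numbered 0 to 5 in Ts65Dn with one animal left out, the 5 without that same library. The causes were not tested. The replicate block changed no other call. The part of depth in the Ts65Dn levels was not tested, and the Ts65Dn littermates with low levels were the shallowest of their group.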
